A study of Mus musculus with 16 samples.

Results

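Mast cells and basophils are the granulated cells that carry immunoglobulin E (IgE) on a high-affinity receptor and release histamine, proteases and lipid mediators when it is crosslinked. The report concerns 10 genes of these lineages. They were chosen by name and by no rule on their values, though earlier results of these data were known. The proteases are Mcpt8, Prss34, Cpa3, Cma1 and Tpsb2, and the IgE receptor chains are Fcer1a and Ms4a2. The others are the alarmin receptor Il1rl1, the histamine-forming enzyme Hdc and the transcription factor Mitf. All 10 were found, as 10 rows among the 45706 genes of a read count table from 16 mouse bone marrow libraries. Mast cells and basophils arise from granulocyte and erythroid-megakaryocyte related progenitors in the marrow, and GATA2, a zinc finger factor that binds GATA motifs, is needed for their formation and for many of their effector genes. MITF, a factor best known from melanocytes, binds E-box motifs and is a further regulator of mast cell genes. Mouse basophils are rich in Mcpt8 and Prss34, mature tissue mast cells in Cma1 and Tpsb2, and Cpa3 is used by both lineages and by their progenitors.

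The study concerned a blood system with a haploinsufficient Gata2 gene, challenged by giving low numbers of sorted LSK cells to irradiated WT recipients. LSK cells lack lineage markers, carry Sca-1 and Kit, and include the stem cells of the marrow. They gave 3 libraries of Day0_Gata2 and 2 of Day0_WT, and 2 libraries of Day2_Gata2 and 3 of Day2_WT. Marrow cells carrying CD45.2, the label of the cell type at Week2, gave 3 libraries of Week2_Gata2 and 3 of Week2_WT. The labels name neither the allele, strain and age of the mice nor what was done between Day0 and Day2. They also do not say that replicates came from separate animals, so a p-value here reflects the scatter among libraries, which may be technical.

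Library totals ran from 19.6 M to 68.3 M counts in LSK cells and from 177 M to 321 M at Week2 (M, mega). Levels are counts per M counts after TMM scaling (CPM), and 3 counts stood for at most 0.139 CPM in any library. Gata2 itself was checked first. It was at 605, 745 and 680 CPM in the Day0 libraries labelled Gata2, against 428 and 328 CPM in WT, and at 488 and 733 CPM in the Day2 libraries labelled Gata2, against 290, 261 and 258 CPM in WT. At Week2 it was at 24.9, 10.6 and 9.83 CPM in the libraries labelled Gata2 and at 10.5, 16.1 and 12.5 CPM in WT. Gata2 was thus not lower in the libraries labelled Gata2, and its log2 differences of 0.81 ± 0.20 (SE) at Day0 and 1.18 ± 0.19 at Day2 did not pass the test (edgeR adjusted p = 0.341 and 0.207), nor did that at Week2 (edgeR adjusted p = 1). Every direction by genotype below refers to these labels. Kit, the receptor that defines LSK cells, was at 407 to 708 CPM in LSK libraries and at 20.9 to 67.9 CPM at Week2. The protocol describes lineage-negative marrow, yet the Week2 libraries held neutrophil granule genes at a summed 22394 to 91386 CPM, against 1861 to 8954 CPM in LSK libraries. By the Y chromosome gene Ddx3y, Day0_WT replicate 2, Day0_Gata2 replicate 3 and Week2_Gata2 replicate 3 were female and the other libraries male. Day0_WT replicate 1 was the shallowest library, and results that rest on it or on its partner are given without each. Such a fit leaves 1 library in Day0_WT (as leaving out a Day2_Gata2 library does there), which is then assumed to vary like the libraries of the other groups, so its p-values do not measure the spread of that group.

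Averaged over all 16 libraries the members differed by orders of magnitude. Per kilobase of exon (RPKM), Prss34 averaged 114 and was the highest, followed by Mcpt8 at 41.7, Cpa3 at 32.2 and Hdc at 18.1. Fcer1a averaged 5.35 RPKM, Ms4a2 3.32 and Il1rl1 1.10. Mitf averaged 0.693 RPKM, Cma1 0.443 and Tpsb2 0.0877. Cma1 and Tpsb2, the proteases of mature mast cells, were thus low per length, while the order of the abundant members depended on the time. At Day2, Cpa3 led at 62.7 RPKM in Gata2 and 49.7 RPKM in WT, with Prss34 at 16.3 and 16.6 RPKM. At Week2, Hdc lay above Mcpt8, at 38.4 against 22.3 RPKM in Gata2 and 32.6 against 29.98 RPKM in WT. All members are protein-coding genes and their exons overlap no other annotated gene. Of the possible 50-base stretches of Cma1, 5.38% also occur in the gene model Gm48934, and 2.1% of those of Ms4a2 occur in Ms4a4b, so a small part of their reads could be shared.

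Promoters are shown for the 5 members on which the comparison of Day2 with Day0 turns, because GATA2 and MITF act through short motifs that can be read in them. The RefSeq table (GRCm38.p6) held a promoter for 9 of the 10 members, each running from 250 bases before to 50 bases after a start site, 12 promoters in all. Capitals mark AGATAA or TGATAA, the GATA motifs searched, and CACGTG or CATGTG, the E-boxes searched, on both strands (TTATCT and CACATG are AGATAA and CATGTG on the opposite strand). The promoters lie at chr17:25298144-25298443 on the plus strand for Prss34, chr14:56085148-56085447 on the minus strand for Mcpt8, chr3:20242132-20242431 on the minus strand for Cpa3, chr1:173227180-173227479 on the minus strand for Fcer1a and chr19:11623670-11623969 on the minus strand for Ms4a2.
Prss34: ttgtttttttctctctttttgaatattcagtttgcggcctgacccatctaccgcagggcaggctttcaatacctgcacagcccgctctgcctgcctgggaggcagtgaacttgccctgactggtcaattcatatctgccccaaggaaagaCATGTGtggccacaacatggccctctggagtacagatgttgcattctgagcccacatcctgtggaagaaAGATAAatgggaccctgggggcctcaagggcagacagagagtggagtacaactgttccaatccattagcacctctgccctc
Mcpt8: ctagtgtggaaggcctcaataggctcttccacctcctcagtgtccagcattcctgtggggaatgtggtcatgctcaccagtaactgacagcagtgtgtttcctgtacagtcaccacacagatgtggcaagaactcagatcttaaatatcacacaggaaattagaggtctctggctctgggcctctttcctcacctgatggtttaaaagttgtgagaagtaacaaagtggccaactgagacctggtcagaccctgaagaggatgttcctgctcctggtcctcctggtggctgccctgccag
Cpa3: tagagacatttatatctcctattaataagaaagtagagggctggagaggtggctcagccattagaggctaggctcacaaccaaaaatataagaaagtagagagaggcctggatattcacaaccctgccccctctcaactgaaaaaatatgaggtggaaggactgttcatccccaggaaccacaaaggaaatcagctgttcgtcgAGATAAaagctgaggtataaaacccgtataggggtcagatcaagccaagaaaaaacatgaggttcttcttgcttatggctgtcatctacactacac
Fcer1a: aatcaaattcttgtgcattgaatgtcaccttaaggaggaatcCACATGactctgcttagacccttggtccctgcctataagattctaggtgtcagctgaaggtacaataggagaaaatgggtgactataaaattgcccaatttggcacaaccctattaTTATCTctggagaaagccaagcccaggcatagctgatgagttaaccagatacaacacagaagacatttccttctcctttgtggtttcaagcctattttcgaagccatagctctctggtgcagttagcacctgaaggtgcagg
Ms4a2: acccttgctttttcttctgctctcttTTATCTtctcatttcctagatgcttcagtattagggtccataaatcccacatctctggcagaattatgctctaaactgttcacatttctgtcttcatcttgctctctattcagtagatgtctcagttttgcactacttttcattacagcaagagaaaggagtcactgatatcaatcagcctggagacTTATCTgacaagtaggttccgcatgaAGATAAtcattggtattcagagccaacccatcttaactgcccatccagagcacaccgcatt
The Prss34 promoter held AGATAA at -31 (first base, counted from the start site) and CATGTG at -100. The Fcer1a promoter held the same pair of motifs on the opposite strand, AGATAA at -92 and CATGTG at -208. Cpa3 held AGATAA at -46, and Ms4a2 held it at -11 and, on the opposite strand, at -37 and -224. Il1rl1 and Mitf also had a GATA match in a promoter, which made 6 members with one, whereas Mcpt8, Hdc and Cma1 had neither motif in this window. Of the 32851 promoters of this full length in the table, 18.6% held a GATA motif and 20.4% an E-box. These shares are per promoter, whereas the members were counted per gene, and Il1rl1 and Mitf had several promoters each. These matches describe letters and not binding.

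Between Day0 and Day2, Prss34 and Fcer1a fell in LSK cells of both genotypes, and Mcpt8 fell in WT, while Cpa3 lay above its Day0 libraries in every Day2 library without passing the test. In these bulk libraries fewer cells of a type and less RNA per cell cannot be told apart. The share of all genes whose Day2 and Day0 libraries did not overlap was not computed. Such separation of a member is therefore a description here and below. In groups of this size, 32.8% of all genes tested did not overlap between the genotypes at Day0. Of the 10 members, 9 had enough counts to be tested in LSK cells (Tpsb2 did not). In Gata2, 2 of the 9 were called lower at Day2 and 0 higher. In WT, 3 of the 9 were called lower and 0 higher. Over all 19162 genes tested, 4.82% were called lower and 4.48% higher in Gata2, and 17.9% were called lower and 11.9% higher in WT. At an unadjusted edgeR p under 0.05 there were 4 members in Gata2, beside 4871 of the 19162 genes tested. In WT there were 5 members, beside 8251 of the 19162 genes. The median log2 change of the 9 members was 0.00 in Gata2, beside -0.07 for all genes, and -0.64 in WT, beside -0.11 for all genes. The comparison of times within each genotype asks how LSK cells changed from Day0, and Gata2 and WT were fitted in 1 model of 10 libraries.

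Prss34, a serine protease found mainly in basophils (ENSMUSG00000056399, chr17:25298394-25300165, plus strand), had the largest fall of the members in both genotypes. It was at 27.2 and 12.7 CPM in Day2_Gata2, against 221, 298 and 450.5 CPM in Day0_Gata2. It was at 7.60, 31.0 and 22.02 CPM in Day2_WT, against 174 and 375 CPM in Day0_WT. Every Day2 library lay below every Day0 library. The log2 change was -4.02 ± 0.68 in Gata2, 16.2-fold lower (edgeR adjusted p = 0.00688), and -3.78 ± 0.59 in WT, 13.8-fold lower (edgeR adjusted p = 0.00245). The call in Gata2 was lost when either Day2_Gata2 library was left out, with edgeR adjusted p = 0.0505 without replicate 1 and 0.0665 without replicate 2, at log2 changes of -4.75 and -3.59.

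Fcer1a, the chain of the IgE receptor that binds IgE (ENSMUSG00000005339, chr1:173221284-173227214, minus strand), was at 1.43 CPM or less in every Day2 library. It was at 1.30 and 0.0981 CPM in Day2_Gata2, the lower value being 5 counts, against 6.57, 7.29 and 10.3 CPM in Day0_Gata2. It was at 1.04, 1.43 and 0.736 CPM in Day2_WT, against 5.71 and 16.4 CPM in Day0_WT. The Day2 and Day0 libraries did not overlap, but the Day0_WT libraries were far apart. The log2 change was -3.52 ± 0.95 in Gata2, 11.5-fold lower (edgeR adjusted p = 0.0485), and -3.38 ± 0.83 in WT, 10.4-fold lower (edgeR adjusted p = 0.0161). In Gata2 the call held in 3 of the 10 fits that left out a library: it was lost without any single Day0_Gata2 library, without any single Day2_WT library, and without Day2_Gata2 replicate 2, where the log2 change was -2.65 and the edgeR adjusted p 0.110. The other losses had log2 changes from -3.63 to -3.31 and edgeR adjusted p from 0.0703 to 0.129. In WT the call was lost without Day2_WT replicate 3 (log2 change -3.20, edgeR adjusted p = 0.0589).

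Ms4a2, the chain of the same receptor that amplifies its signal (ENSMUSG00000024680, chr19:11615523-11623719, minus strand), did not follow Fcer1a in size. It was at 9.34 and 6.32 CPM in Day2_Gata2, against 11.8, 10.9 and 13.3 CPM in Day0_Gata2. It was at 7.17, 9.72 and 7.72 CPM in Day2_WT, against 14.96 and 13.3 CPM in Day0_WT. All Day2 libraries were below all Day0 libraries. The log2 changes of -0.61 ± 0.30 in Gata2 and -0.81 ± 0.29 in WT did not pass the test (edgeR adjusted p = 0.232 and 0.0585). The log2 change in WT was -0.91 without Day0_WT replicate 2 and -0.89 without Day2_Gata2 replicate 1. In Gata2 it was -0.76 without Day0_WT replicate 2.

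Mcpt8, a protease used as a basophil marker in mice (ENSMUSG00000022157, chr14:56082166-56085273, minus strand), was lower at Day2 in every library. It was at 40.5 and 35.4 CPM in Day2_Gata2, against 56.9, 65.0 and 82.4 CPM in Day0_Gata2. It was at 19.1, 28.9 and 29.9 CPM in Day2_WT, against 57.8 and 93.9 CPM in Day0_WT. The log2 change in WT was -1.57 ± 0.26, 2.96-fold lower (edgeR adjusted p = 0.00333), and was called in all 10 fits that left out a library. In Gata2 it was -0.84 ± 0.27 and did not pass (edgeR adjusted p = 0.0862). It was -0.86 there without Day0_WT replicate 1 and -0.98 without replicate 2. The difference between the genotypes' changes over time was 0.73 ± 0.37 on the log2 scale and did not pass either (edgeR adjusted p = 0.514), so a difference between the genotypes was not established.

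Cpa3, carboxypeptidase A3, which trims peptides in mast cell granules (ENSMUSG00000001865, chr3:20215620-20242181, minus strand), had the opposite sign. It was at 93.9 and 96.2 CPM in Day2_Gata2, against 64.1, 70.6 and 47.7 CPM in Day0_Gata2. It was at 72.5, 80.0 and 73.5 CPM in Day2_WT, against 62.0 and 41.6 CPM in Day0_WT. The Day2 libraries were all above the Day0 libraries, but the log2 changes of 0.64 ± 0.22 in Gata2 and 0.51 ± 0.22 in WT did not pass (edgeR adjusted p = 0.0989 and 0.110). Without Day0_WT replicate 1 they were 0.62 in Gata2 and 0.83 in WT. Without Day0_WT replicate 2 they were 0.51 in Gata2 and 0.24 in WT.

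**Figure D1:**
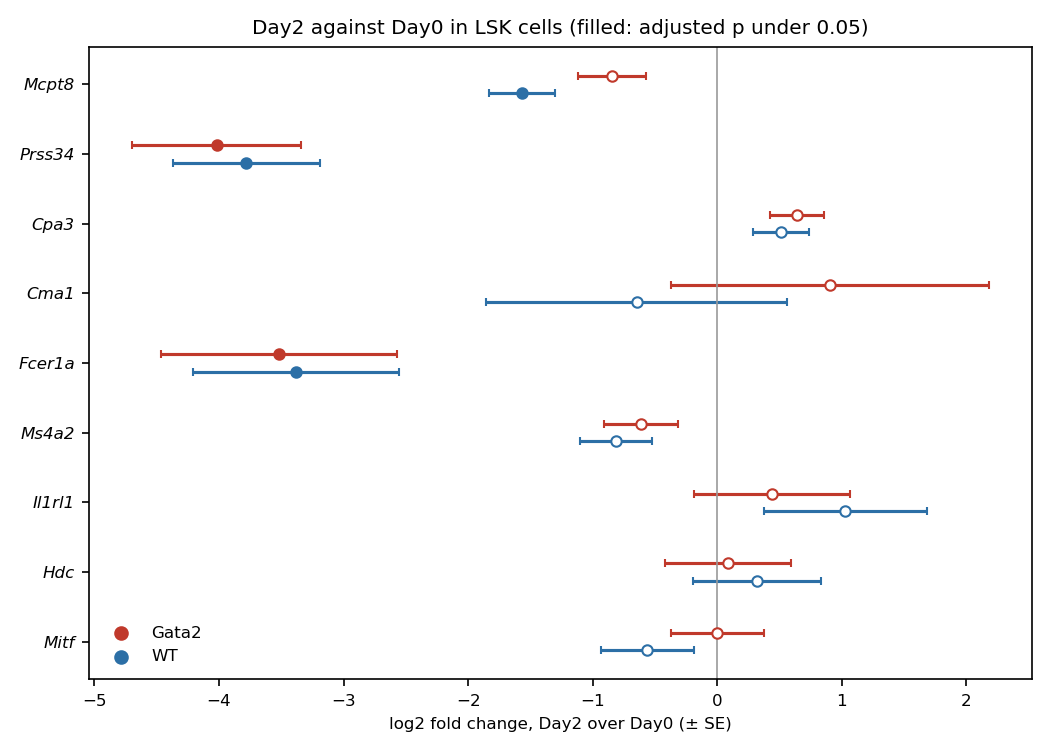
Log2 fold change of 9 members in LSK cells, Day2 over Day0, with SE bars, for libraries labelled Gata2 (red) and WT (blue); filled points passed an edgeR adjusted p of 0.05. Prss34 and Fcer1a lie near -4 and -3.4 in both genotypes, Mcpt8 is filled in WT, and Cpa3 lies right of 0 without passing.

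The other tested members were not called over time in either genotype with all libraries. Il1rl1, the receptor for the alarmin interleukin-33, was at 14.3 and 5.28 CPM in Day2_Gata2, against 8.53, 6.62 and 6.53 CPM in Day0_Gata2. It was at 10.4, 12.3 and 6.98 CPM in Day2_WT, against 1.53 and 8.01 CPM in Day0_WT. The Day0_WT libraries were far apart, and its log2 change in WT of 1.03 ± 0.65 (edgeR adjusted p = 0.259) became 2.65 without Day0_WT replicate 2. Mitf was at 4.72 and 4.61 CPM in Day2_Gata2 and 4.33, 4.08 and 5.57 CPM in Day0_Gata2. It was at 4.08, 3.51 and 5.15 CPM in Day2_WT and 7.48 and 4.81 CPM in Day0_WT. The Mitf libraries of the times overlapped in both genotypes, and its log2 change in WT was -0.56 ± 0.37 (edgeR adjusted p = 0.277). Without Day0_WT replicate 2 it was -0.86.

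Hdc, which makes histamine from histidine, is also transcribed in neutrophil-lineage cells. It was at 48.6 and 64.0 CPM in Day2_Gata2 and at 49.8, 45.7 and 63.8 CPM in Day0_Gata2. It was at 34.8, 46.7 and 62.0 CPM in Day2_WT and at 13.1 and 62.7 CPM in Day0_WT. The ranges overlapped in both genotypes, and the low library was Day0_WT replicate 1. Set against that library alone, the log2 change of Hdc in WT was 1.82 ± 0.36. Against replicate 2 alone it was -0.42 ± 0.30, so the sign depended on which was used. That library also had the lowest sum of the 11 neutrophil granule genes, 1861 CPM, against 4829 CPM in its partner. The part of neutrophil-lineage RNA in the Hdc level was not tested.

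Cma1 and Tpsb2, the chymase and tryptase of connective tissue mast cells, were close to the detection limit in LSK cells. Cma1 had 11 and 9 counts in Day2_Gata2, against 7, 6 and 4 counts in Day0_Gata2. It had 20, 32 and 20 counts in Day2_WT, against 0 and 74 counts in Day0_WT. The change of Cma1 in WT likewise took its sign from the Day0_WT library used. It was -1.63 ± 0.71 against replicate 2 alone and positive against replicate 1 alone. The change against replicate 1 has no meaning as a size, because that library had no count. Tpsb2 had 0 and 0 counts in Day2_Gata2 and 1, 2 and 0 counts in Day0_Gata2. It had 8, 0 and 0 counts in Day2_WT, against 3 and 69 counts in Day0_WT. Day0_WT replicate 2 was therefore the LSK library in which both mast cell proteases stood out, at 1.45 CPM for Cma1 and 1.35 CPM for Tpsb2. The 10 further mast cell genes listed (such as Tpsab1, Mcpt4 and Mrgprb1) summed to 0 to 0.511 CPM in the LSK libraries, with 3 to 10 of the 10 at 0, and none was tested there. They summed to 0.176 CPM in Day0_WT replicate 2 and to 0.511 CPM in replicate 1, so they did not stand out in replicate 2.

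**Figure D2:**
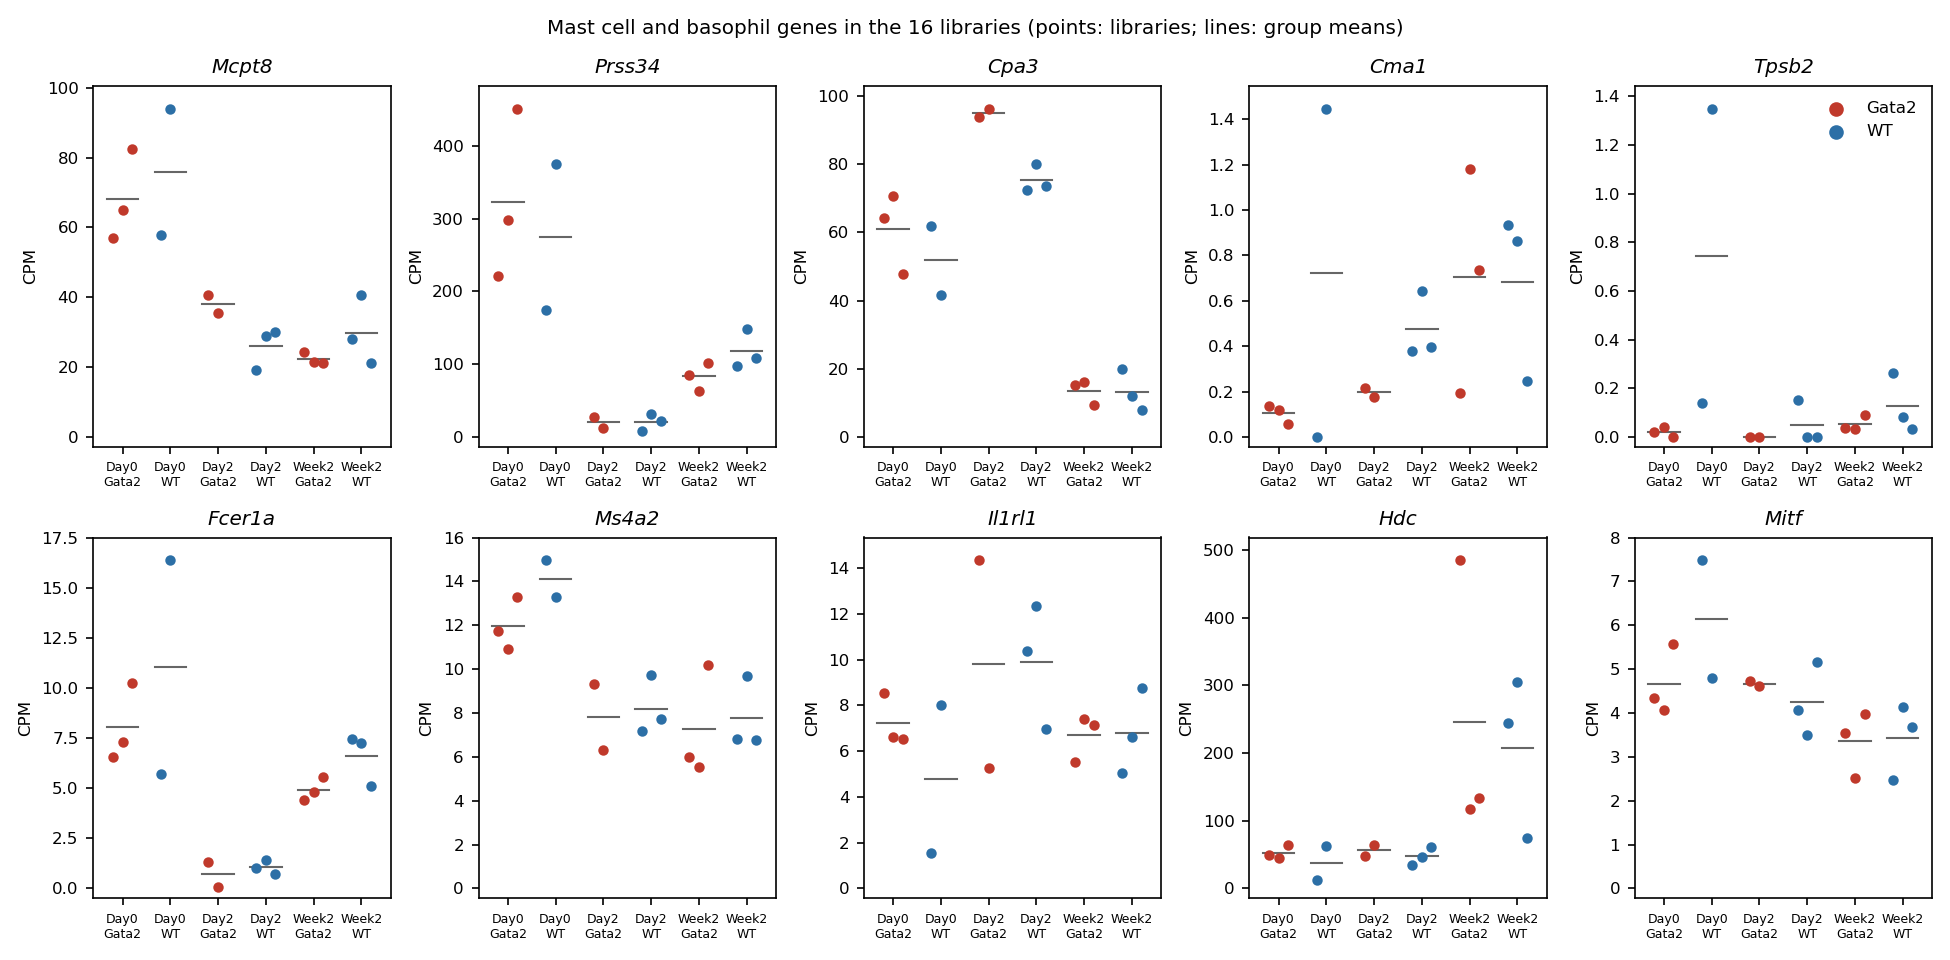
CPM of the 10 members in each of the 16 libraries (points; red, libraries labelled Gata2; blue, WT), by group from Day0 to Week2, with a line at each group mean and a linear axis per gene that includes 0. Prss34 and Fcer1a are lowest at Day2 in both genotypes, Cpa3 is highest at Day2, Hdc is highest at Week2, and a single Day0_WT library holds 74 of the 183 Cma1 counts and 69 of the 83 Tpsb2 counts of the LSK cells.

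Ratios of counts within a library do not depend on scaling, and they were chosen after the values had been seen, so they are descriptions. Prss34 had 3.01 to 5.47 counts per Mcpt8 count in the 5 Day0 libraries, 0.359 to 1.074 in the 5 Day2 libraries and 2.96 to 5.11 in the 6 Week2 libraries. Fcer1a had 0.382 to 1.23 counts per Ms4a2 count at Day0, 0.0155 to 0.147 at Day2 and 0.544 to 1.09 at Week2. Cpa3 had 0.442 to 1.13 counts per Mcpt8 count at Day0, 2.32 to 3.80 at Day2 and 0.294 to 0.757 at Week2. In each pair the Day2 libraries lay outside the range of Day0 and Week2, so the basophil genes did not move in a fixed proportion to each other.

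**Figure D3:**
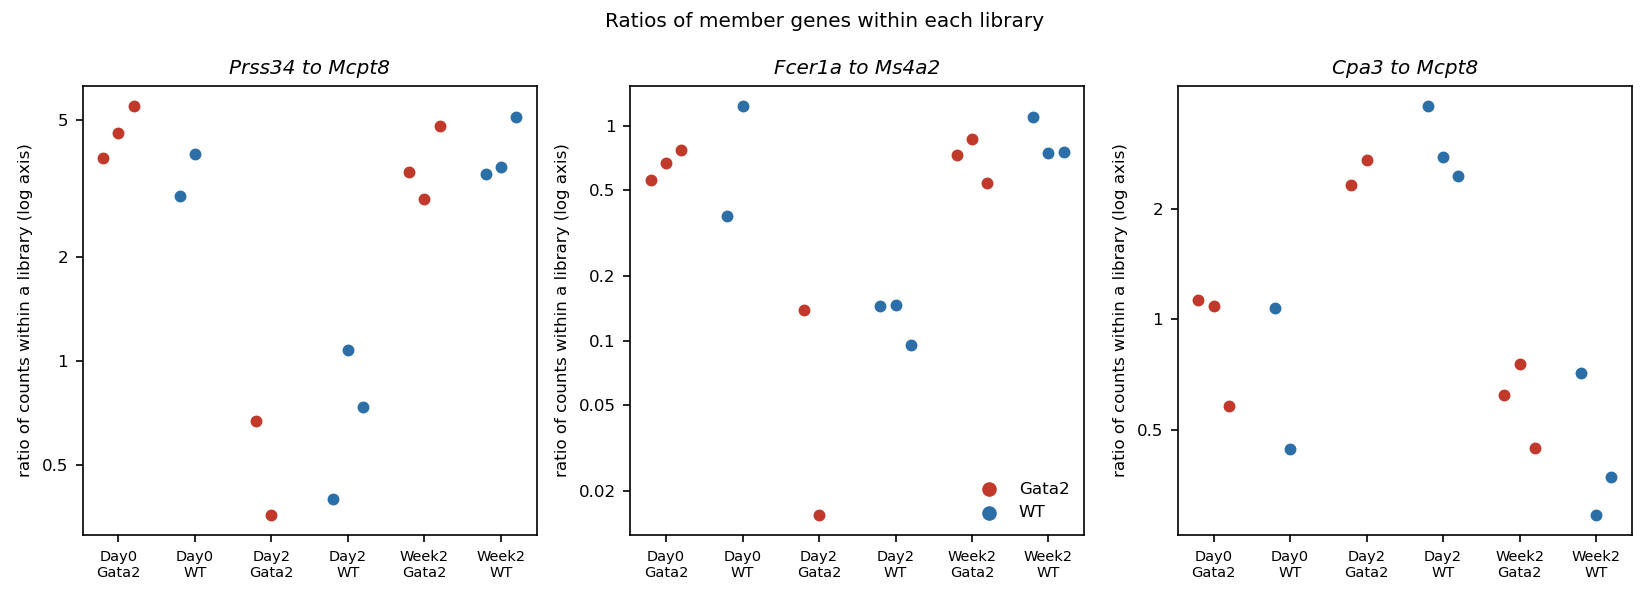
Ratio of the counts of Prss34 to Mcpt8, Fcer1a to Ms4a2 and Cpa3 to Mcpt8 within each library, on log axes, for libraries labelled Gata2 (red) and WT (blue). The 5 Day2 libraries stand apart in each panel: at or below 1.074, at or below 0.147 and at or above 2.32.

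Several genes that signal below the IgE receptor were higher at Day2, where Fcer1a was lower. Of 14 listed signalling genes, 4 were called higher at Day2 in Gata2 and 1 lower, and 6 were called higher in WT and 0 lower. The medians were 0.21 in Gata2 and 0.41 in WT on the log2 scale. Over all genes tested, 4.48% were called higher and 4.82% lower in Gata2, and 11.9% higher and 17.9% lower in WT. Lat, Lat2 and Lcp2, adaptors that assemble signalling complexes below the receptor, rose in both genotypes, as did the kinase Lyn. The rise of Lcp2 was 1.20 ± 0.16 in Gata2 (edgeR adjusted p = 0.00267) and 1.30 ± 0.17 in WT (edgeR adjusted p = 0.00116). Lat2 averaged 81.5 CPM in Day2_Gata2, against 48.6 CPM in Day0_Gata2, and 95.7 CPM in Day2_WT, against 44.1 CPM in Day0_WT. Plcg1, a phospholipase, fell in Gata2 by 0.88 ± 0.18. Fcer1g, the signalling chain that the IgE receptor shares with other Fc receptors, averaged 157 CPM in Day2_Gata2, against 69.3 CPM in Day0_Gata2, and 151 CPM in Day2_WT, against 147 CPM in Day0_WT, and was not called. Many of these signalling genes also serve other blood cells.

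Of 10 further genes used as basophil genes, 9 were tested, of which 3 fell and 2 rose in Gata2, and 5 fell and 2 rose in WT. Beside them, 4.82% of all genes fell and 4.48% rose in Gata2, and 17.9% fell and 11.9% rose in WT. The chemokine genes Ccl3 and Ccl4 and the growth factor gene Csf1 fell in both genotypes. Ccl4 was at a mean of 2.82 CPM in Day2_Gata2, against 72.9 CPM in Day0_Gata2, and at 9.53 CPM in Day2_WT, against 154 CPM in Day0_WT. Cd200r3, a surface receptor of basophils and mast cells, averaged 2.26 CPM in Day2_WT, against 5.94 CPM in Day0_WT, and fell there by 1.42 ± 0.44, as did the cytokine gene Il4 by 2.16 ± 0.58. The 2 genes that rose, the chemokine receptor gene Ccr2 and the granzyme gene Gzmb, are also known from monocytes and cytotoxic cells. Ccr2 averaged 255 CPM in Day2_Gata2, against 25.98 CPM in Day0_Gata2, and 261 CPM in Day2_WT, against 26.6 CPM in Day0_WT.

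Among 11 matched genes for granule contents and lipid mediators shared by mast cells and basophils, 4 rose and 0 fell in Gata2, and 4 rose and 1 fell in WT. Beside this and the next lists, 4.48% of all genes rose and 4.82% fell in Gata2, and 11.9% rose and 17.9% fell in WT. Ptgs1, a cyclooxygenase, rose by 2.03 ± 0.15 in Gata2 and 1.95 ± 0.16 in WT. Alox5, the lipoxygenase that starts leukotriene synthesis, rose by 3.30 ± 0.40 in Gata2 and 2.48 ± 0.43 in WT. Ltc4s, the last enzyme of leukotriene C4 synthesis, fell by 1.58 ± 0.37 in WT. Of 12 receptors for growth factors and alarmins, 2 rose and 0 fell in Gata2, and 3 rose and 2 fell in WT. Csf2rb, the shared chain of the receptors for interleukin-3 and related cytokines, rose by 1.05 ± 0.21 in Gata2 and 1.78 ± 0.23 in WT. Of 17 transcription factors, 1 rose and 2 fell in Gata2, and 3 rose and 4 fell in WT. Bhlhe40 rose by 2.98 ± 0.36 in Gata2 and 3.20 ± 0.41 in WT, and Zfpm1, which encodes the GATA cofactor FOG1, fell by 1.68 ± 0.46 in Gata2 and 2.48 ± 0.43 in WT.

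Counts for markers of other blood cells stand beside the shares over all genes. These were 4.82% lower and 4.48% higher in Gata2, and 17.9% lower and 11.9% higher in WT. In lists this short, a count of 1 or 2 genes is not read as a change of the list. Of 7 megakaryocyte genes, 5 rose in each genotype, to a summed 1838 to 1957 CPM in Day2_Gata2, against 425 to 510 CPM in Day0_Gata2, and to 2119 to 2532 CPM in Day2_WT, against 350 to 569 CPM in Day0_WT. Of 11 neutrophil granule genes, 3 rose in Gata2 and 7 in WT. Of 8 erythroid genes, 3 fell in Gata2 and 6 in WT, to a summed 13.4 to 22.7 CPM in Day2_Gata2, against 101 to 199 CPM in Day0_Gata2, and to 18.9 to 20.4 CPM in Day2_WT, against 131 to 203 CPM in Day0_WT. Of 8 stem and progenitor genes, 3 fell in Gata2 and 5 in WT. Of 10 eosinophil genes, 1 fell in Gata2 and 2 in WT, and of 8 T cell and innate lymphoid genes, which bear on Il1rl1, 1 fell in Gata2 and 4 in WT. Of 8 osteoclast and melanocyte genes, which bear on Mitf, 4 were tested and 1, Acp5, fell in each genotype, and of 8 monocyte and macrophage genes 0 were called. The part of a changed mix of cells in the members' levels was not tested.

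Genes whose pattern over the 10 LSK libraries was most like that of a member were found for the 3 most abundant members, by the root mean square difference of centred log2(CPM + 1) among 10141 genes of 5 CPM or more. For Prss34 they were Dmp1, Hnf4a, Irf7 and Iigp1, at differences of 0.56 to 0.64, beside a median of 2.14 over all these genes. Irf7, a factor of the interferon response, was at 3.77 to 8.67 CPM in the 5 Day2 libraries, against 51.1 to 92.6 CPM in the 5 Day0 libraries. Dmp1 was at 11.7 to 20.4 CPM at Day0 and had no count in any Day2 library. For Mcpt8 they were Ighm, Rgs3, Csad and Mndal, at 0.21 to 0.23, beside a median of 0.82. For Cpa3 they were Tmem209, Pigu, Atp1b3 and Slc39a10, at 0.15 to 0.17, beside a median of 0.49. These are descriptions over libraries that share their times.

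Between the genotypes, no member passed the test at any time. At Day0, 0 of the 9 tested members were called by edgeR, DESeq2 or limma voom, and 0 had an unadjusted edgeR p under 0.05. Among the 19162 genes tested, edgeR's calls came to 0%, although 2586 had p under 0.05 before adjustment. DESeq2 called 312 genes and limma voom 0. The libraries of Gata2 and WT did not overlap for 1 of the 9 tested members, Ms4a2, at 11.8, 10.9 and 13.3 CPM in Day0_Gata2 and 14.96 and 13.3 CPM in WT (the highest Gata2 and lowest WT library differing past the printed digits), where 32.8% of all genes tested did not overlap. The lowest p was that of Cma1, with a log2 difference of -2.81 ± 1.26 (edgeR adjusted p = 0.370), which rests on the 74 counts of Day0_WT replicate 2. Without that library the edgeR fit gave 5.496 for Cma1 (adjusted p = 0.0800), against a WT library with no count. With Day0_WT then a single library and the spread taken from the other groups, that fit called 8655 genes and 2 members, Hdc (2.16 ± 0.36, edgeR adjusted p = 0.00148) and Il1rl1 (2.38 ± 0.61, edgeR adjusted p = 0.0125), the genes that were low in Day0_WT replicate 1. Without Day0_WT replicate 1, which also leaves 1 library, it called 0 genes.

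At Day2, 0 of the 9 tested members were called by edgeR, DESeq2 or limma voom, and 0 had an unadjusted edgeR p under 0.05. Among the 19162 genes tested, edgeR's calls came to 0%, although 1070 had p under 0.05 before adjustment, while DESeq2 called 141 genes and limma voom 23. Groups did not overlap for 3 of the 9, beside 21.1% of all genes. Mcpt8, at 40.5 and 35.4 CPM in Day2_Gata2 and 19.1, 28.9 and 29.9 CPM in Day2_WT, was higher in both Gata2 libraries, with a log2 difference of 0.55 ± 0.26 (edgeR adjusted p = 0.920). Cpa3, at 93.9 and 96.2 CPM in Day2_Gata2 and 72.5 to 80.0 CPM in Day2_WT, differed by 0.34 ± 0.22 (edgeR adjusted p = 0.986). Cma1 was lower in both Gata2 libraries, at 0.216 and 0.177 CPM, against 0.379, 0.645 and 0.398 CPM in WT (edgeR adjusted p = 1). The difference between the genotype effects at Day2 and Day0 called 0 members and 0% of all genes by edgeR (0 members and 1984 genes at an unadjusted p under 0.05), while DESeq2 called 182 genes and limma voom 0, with 0 members each. With the shallow replicate 1 alone for Day0_WT, that difference was -1.87 ± 0.43 for Hdc and -2.37 ± 0.70 for Il1rl1. The spread was then taken from the other groups.

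**Figure D4:**
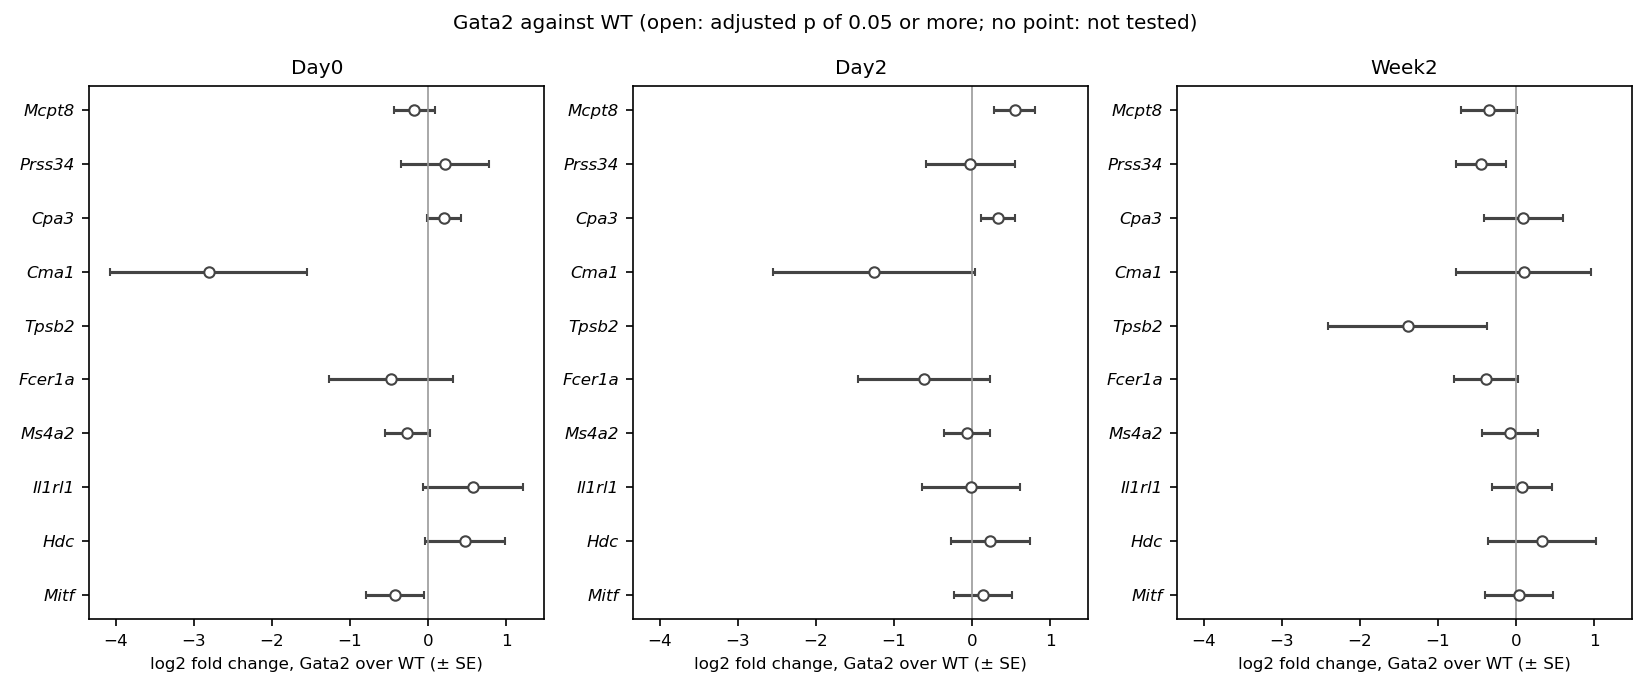
Log2 fold change of the members, Gata2 over WT, with SE bars, at Day0, Day2 and Week2; open points had an edgeR adjusted p of 0.05 or more, and Tpsb2 was tested at Week2 alone. No point is filled, and Cma1 and Tpsb2 have the widest bars.

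At Week2 all 10 members were tested and lay in a different cell population from the LSK libraries, so levels between them are described and not tested. By edgeR 0 of the 10 were called and 0 had an unadjusted p under 0.05, beside 0% of all 36485 genes (87 at an unadjusted p under 0.05). For 0 of the 10 were Gata2 and WT separate, beside 1.58% of all genes. Prss34 was at 85.7, 63.1 and 101 CPM in Week2_Gata2, against 97.4, 149 and 108 CPM in WT, a log2 difference of -0.44 ± 0.32 (edgeR adjusted p = 1). Fcer1a was at 4.42, 4.83 and 5.54 CPM in Week2_Gata2, against 7.45, 7.27 and 5.13 CPM in WT. Mcpt8 was at 24.2, 21.3 and 21.1 CPM in Week2_Gata2, against 27.9, 40.7 and 21.1 CPM in WT. These 3 genes had lower means in Gata2. For Prss34 (83.4 ± 19.3 CPM in Gata2 and 118 ± 27.0 CPM in WT) and Fcer1a (4.93 ± 0.57 and 6.62 ± 1.29 CPM) the means lay further apart than either SD, and for Mcpt8 they did not, but the libraries overlapped for each and none passed the test. DESeq2 called 0 members and 1 gene. The exception was limma voom with quality weights, which gave the libraries weights from 0.221 to 5.13 and called 12866 genes, among them Cpa3 (1.08 ± 0.28, limma adjusted p = 0.0114) and Cma1 (1.66 ± 0.59, limma adjusted p = 0.0465).

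Cpa3 was at 15.1, 16.1 and 9.40 CPM in Week2_Gata2, against 19.9, 12.0 and 7.85 CPM in WT, so the groups overlapped. Ms4a2 was at 6.02, 5.55 and 10.2 CPM in Week2_Gata2 and 6.81, 9.70 and 6.78 CPM in WT. Il1rl1 was at 5.53, 7.39 and 7.15 CPM in Week2_Gata2 and 5.05, 6.63 and 8.76 CPM in WT. Mitf was at 2.51 to 3.99 CPM in Week2_Gata2 and 2.47 to 4.14 CPM in WT. For Ms4a2, Il1rl1 and Mitf the ranges of the genotypes overlapped. Cma1 was at 0.195, 1.18 and 0.735 CPM in Week2_Gata2, against 0.933, 0.863 and 0.248 CPM in WT. Tpsb2 was at 0.0381, 0.0334 and 0.0888 CPM in Week2_Gata2, against 0.263, 0.0838 and 0.0314 CPM in WT, a log2 difference of -1.38 ± 1.02 (edgeR adjusted p = 1), and without Week2_WT replicate 1 it was 0.12. The 10 further mast cell genes summed to 1.53, 3.54 and 16.3 CPM in Week2_Gata2, against 2.33, 11.4 and 11.8 CPM in WT, with none at 0, so that each of these genes was detected in every Week2 library. Set against the genotype effect at Day0, that at Week2 differed for 0 members and 0% of all genes by edgeR (0 members and 1459 genes at an unadjusted p under 0.05), while DESeq2 called 8 genes and limma voom 0, with 0 members each. Without Day0_WT replicate 2, again against 1 library, that difference was -2.28 ± 0.67 for Il1rl1.

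Hdc had the widest range in CPM of the members at Week2. It was at 485, 118 and 134 CPM in Week2_Gata2, against 245, 305 and 74.7 CPM in WT. The summed neutrophil granule genes in the same order were 91386, 22398.5 and 24246 CPM in Week2_Gata2 and 73641, 63435 and 22394 CPM in WT. The 3 libraries with the highest Hdc were those with the highest granule sums, and the genotypes overlapped in both measures. Whether neutrophil-lineage RNA accounts for the Hdc level was not tested. Eosinophil genes also split these libraries, at a summed 823, 604 and 41.7 CPM in Week2_Gata2 and 461, 64.1 and 47.7 CPM in WT, which was not the order of Hdc. Erythroid genes summed to 815, 2125 and 26.8 CPM in Week2_Gata2 and 2946, 28.1 and 8509 CPM in WT.

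**Figure D5:**
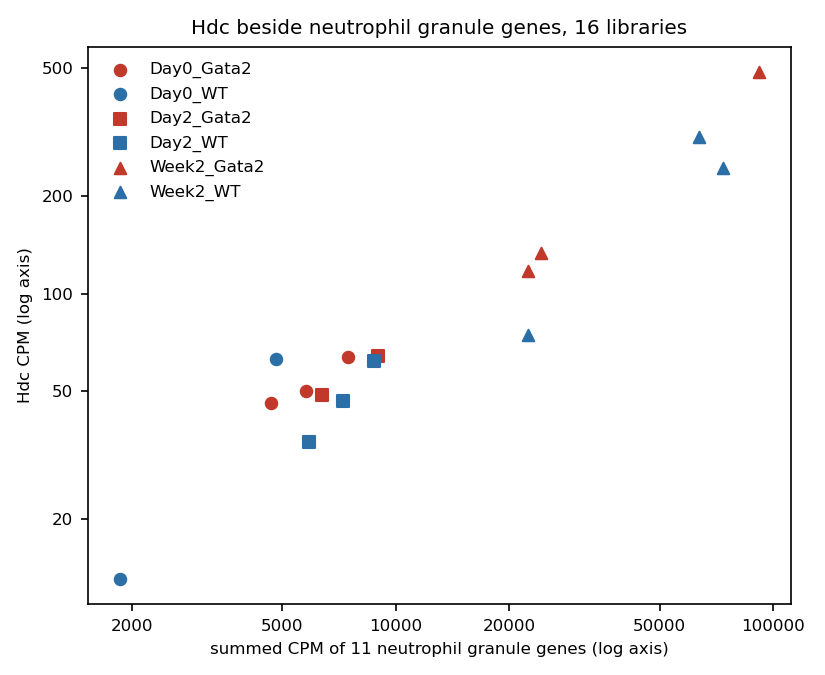
Hdc CPM against the summed CPM of 11 neutrophil granule genes in the 16 libraries, both on log axes; red, libraries labelled Gata2; blue, WT; circles, Day0; squares, Day2; triangles, Week2. The 6 Week2 libraries lie at or above 22394 CPM of granule genes with Hdc between 74.7 and 485 CPM, and the lowest point of both is Day0_WT replicate 1.

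Across all 6 groups the order of levels differed between members. Prss34 was highest at Day0 (323 ± 117 CPM in Day0_Gata2 and 275 ± 142 CPM in Day0_WT, SD), intermediate at Week2 (83.4 ± 19.3 CPM in Week2_Gata2 and 118 ± 27.0 CPM in Week2_WT) and lowest at Day2 (19.9 ± 10.2 CPM in Day2_Gata2 and 20.2 ± 11.8 CPM in Day2_WT), with n = 2 or 3 libraries a group. The groups of different times did not overlap for Prss34, and those of the same time did. Fcer1a had the same order of times, but Day0 and Week2 overlapped. Cpa3 was highest at Day2 (95.04 ± 1.60 CPM in Day2_Gata2 and 75.4 ± 4.08 CPM in Day2_WT) and lowest at Week2 (13.5 ± 3.63 CPM in Week2_Gata2 and 13.2 ± 6.13 CPM in Week2_WT), and no library of either time overlapped Day0. Hdc was highest at Week2 (245 ± 207 CPM in Week2_Gata2 and 208 ± 119 CPM in Week2_WT), where no library overlapped the LSK libraries. For Mcpt8, Day0 lay above all other groups, and Day2_Gata2, Week2_WT, Day2_WT and Week2_Gata2, in falling order of means, overlapped from each to the next. For Ms4a2, Il1rl1 and Mitf the means of the 6 groups lay within 7.25 to 14.1, 4.77 to 9.90 and 3.35 to 6.14 CPM.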

How the data were processed

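RNA was sequenced from 10 LSK and 6 Week2 CD45.2 marrow libraries with a stranded mRNA or an ultra-low-input kit, per the labels' protocols, which do not say which library had which. The authors deposited 1 table of raw read counts per gene. Per the submitters' processing notes, Trimmomatic 0.38 and STAR 2.5.2b were used. How strand was treated in counting is not given in the sources used here.

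Counts were scaled by TMM and tested with edgeR 4.0.16 (robust quasi-likelihood, minimum count 10; R 4.3.3) over all genes, with Benjamini-Hochberg adjustment and a threshold of 0.05. LSK groups shared 1 model, Week2 groups another, and the difference between Week2 and Day0 used all 16 libraries. The fitting step was checked on simulated counts, for 1 comparison each in the LSK libraries, the Week2 libraries and all 16. The other steps were not checked in that way. Alternatives were other scalings and filters, DESeq2 1.42.0, limma 3.58.1 voom, covariates and leaving out each library. Symbols, positions and exon lengths came from GENCODE (GRCm38). The named genes were all 10 members, the called genes of 14 related lists and the 4 genes nearest in pattern to each of 3 members. Members and lists were chosen with earlier results of these data known.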

Additional observations from a re-analysis of the deposited data

How the results depend on the processing

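Of 65 tested values of a member in a comparison, 23 exceeded their SE. Under settings other than leaving out a library these gave 264 values, of which 242 kept their direction and side of the threshold, 13 passed it newly, 5 no longer passed and 4 changed sign. The other 42, smaller than their SE, changed sign in 65 of 475 such values and in 79 of 430 with a library left out. Of these 65 changes of sign, those that passed the test were Hdc over time with the TEC share below as a covariate (-0.90 in Gata2 and -2.21 in WT). In LSK cells that share was 0.131% to 0.362% in Day0 libraries and 0.0314% to 0.0702% in Day2 libraries. A fit over time with it therefore cannot tell the covariate and the time apart, and its changes over time are extrapolations. With the share of counts in unconfirmed transcripts (TEC) as a covariate, Mitf was 0.0803 between genotypes at Day0, 0.32 over time in WT and -0.0343 for the difference at Day2, and Il1rl1 was -1.33 over time in WT. The members called over time in WT were 5 with that covariate, beside 2358 of 19162 genes. In Gata2 they were 5 with it (5031 of 19162 genes) and 1 with a sex covariate (1637 of 19162). They were 4 with the groups fitted alone (5676 of 17806) and 1 with the replicate block (745 of 19162). Same-numbered LSK libraries did not deviate together (correlations -0.11 to 0.06); at Week2 numbers 1 and 3 did (0.77 and 0.60) and number 2 did not (-0.57), so the numbers were not taken to pair libraries. Under the block Fcer1a had edgeR adjusted p = 0.142 in Gata2 and 0.0564 in WT. The Prss34 call was lost in WT with limma voom (adjusted p = 0.0727) and in Gata2 with no filter (edgeR adjusted p = 0.0516). At Week2 limma voom called 2 members. The cause was not tested. Leaving out each library gave 2 to 8 members called over time in WT and 0 to 5 in Gata2, 0 to 2 between genotypes at Day0 and 0 to 0 at Day2 and at Week2, and 0 to 2 and 0 to 1 for the differences at Day2 and Week2. Each highest count above 0 came from the fit without Day0_WT replicate 2, which leaves 1 library in that group. In each of these comparisons that fit also called more of all genes than the fit with all libraries. Its counts are therefore not read as results about the members. Among values above their SE, leaving out a library changed 3 signs: for Cma1 at Day0 (-3.78 to 5.496) and in the Week2 difference (-6.75 to 3.84), without Day0_WT replicate 2, and for Tpsb2 at Week2 (-1.87 to 0.12), without Week2_WT replicate 1. Upper-quartile scaling moved the median of all genes by -0.16 over time in WT, where 28.7% of calls were higher, against 39.97% with TMM, and by 0.11 for the difference at Day2. Cma1 and Tpsb2 were limited by depth in LSK cells.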
